A study of Rattus norvegicus with 8 samples.

Results

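The genes described here are 34 genes of the cell cycle and of proliferation, measured in rat liver. They were chosen by symbol from the roles of their products in cell division, and a probe belongs to a gene when its RefSeq accession maps to that symbol. Of the 34 genes, 25 had at least 1 probe on the array, with 37 probes in all, and 23 could be tested among 24210 genes of the whole array. Mcm3, Mcm4, Mcm5, Bub1b, Cenpe, Top2a, Mki67, Kif11 and Nusap1 had no probe matched by accession and were not analysed here. Aurkb and Prc1 had a probe that was too dim to be tested.

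Livers came from male Wistar/ST rats, and every rat, treated or not, was on a high-fat diet with water rich in fructose. The Eucommia group (4 arrays) drank an extract of the leaves of Eucommia ulmoides, the hardy rubber tree, for 5 weeks, and the Control group (4 arrays) had the same diet without the extract. The comparison asks which liver genes differ with the extract on this diet. The labels give no age, no dose and no group on an ordinary diet. RNA was labelled with Cy3 and hybridised to Agilent 1-colour arrays.

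A cell that divides passes through a growth phase (G1), copies its DNA, and then separates the chromosomes in mitosis. D-type and E-type cyclins with the kinases Cdk4 and Cdk2 release E2F transcription factors, which turn on genes for the replication machinery and for nucleotide supply. Later in the cycle, Cdk1 with A-type and B-type cyclins drives entry into mitosis, and the genes needed there are switched on together through promoter elements that bind NF-Y and the MuvB complex. Hepatocytes of the adult liver rarely divide, but re-enter the cycle after loss of liver tissue, and other liver cells such as macrophages can divide as well.

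The promoters of 5 mitotic genes are shown because these genes carry the results below: Cdc20 and Plk1 were higher in the Eucommia group, and Cdk1, Ccnb1 and Ccnb2 differed widely between single arrays. Each sequence runs 5′ to 3′ from 250 bases before to 50 bases after the start of the gene and was taken from RefSeq on build GRCr8. Capitals mark CCAAT (the NF-Y motif), TTTGAA (the common form of the element bound by MuvB) and, in Cdk1, an E2F word, on either strand, so that ATTGG is CCAAT read on the other strand.
Cdc20, chr5:137255750-137256049, minus strand: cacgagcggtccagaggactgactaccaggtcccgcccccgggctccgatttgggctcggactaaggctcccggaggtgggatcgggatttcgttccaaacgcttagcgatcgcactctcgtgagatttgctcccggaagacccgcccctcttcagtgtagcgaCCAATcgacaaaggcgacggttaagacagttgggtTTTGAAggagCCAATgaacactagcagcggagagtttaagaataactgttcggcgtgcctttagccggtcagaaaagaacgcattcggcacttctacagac
Plk1, chr1:186147408-186147707, plus strand: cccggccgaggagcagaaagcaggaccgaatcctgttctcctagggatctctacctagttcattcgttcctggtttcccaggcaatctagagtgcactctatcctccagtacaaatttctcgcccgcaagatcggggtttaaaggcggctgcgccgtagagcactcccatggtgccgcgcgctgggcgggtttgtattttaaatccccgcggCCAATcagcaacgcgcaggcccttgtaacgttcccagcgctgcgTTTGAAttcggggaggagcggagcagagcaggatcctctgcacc
Cdk1, chr20:19265043-19265342, plus strand: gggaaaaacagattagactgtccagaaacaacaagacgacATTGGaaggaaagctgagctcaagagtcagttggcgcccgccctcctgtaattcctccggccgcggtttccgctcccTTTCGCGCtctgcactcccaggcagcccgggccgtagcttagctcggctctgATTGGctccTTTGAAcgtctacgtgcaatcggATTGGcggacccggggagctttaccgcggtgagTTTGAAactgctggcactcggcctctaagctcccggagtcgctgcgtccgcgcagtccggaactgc
Ccnb1, chr2:33655176-33655475, minus strand: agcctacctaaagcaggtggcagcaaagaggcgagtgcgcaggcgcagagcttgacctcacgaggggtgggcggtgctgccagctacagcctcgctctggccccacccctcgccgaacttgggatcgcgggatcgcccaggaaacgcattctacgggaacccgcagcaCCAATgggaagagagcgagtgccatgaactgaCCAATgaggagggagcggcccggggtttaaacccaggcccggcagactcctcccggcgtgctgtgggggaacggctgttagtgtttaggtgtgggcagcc
Ccnb2, chr8:79981609-79981908, minus strand: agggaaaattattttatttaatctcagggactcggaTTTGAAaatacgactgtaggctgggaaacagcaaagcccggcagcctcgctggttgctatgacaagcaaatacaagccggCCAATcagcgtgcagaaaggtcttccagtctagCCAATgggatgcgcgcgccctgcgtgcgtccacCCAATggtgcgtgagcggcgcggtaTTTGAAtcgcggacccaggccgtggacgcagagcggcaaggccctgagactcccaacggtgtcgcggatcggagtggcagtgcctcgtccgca
Cdc20 had CCAAT at 86 and 41 bases before the start with TTTGAA between these at 51 bases. In Plk1 the CCAAT began 38 bases before the start. Ccnb1 had CCAAT at 82 and 50 bases before the start and neither TTTGAA nor its variant TTCGAA in the window.

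RefSeq promoters of this length were found for 28 of the 34 genes. Searches covered both strands, and no word searched contains another. CCAAT was present in 20 of the 28 (71.4%), against 37.5% of all 33469 promoters of the table, and more than 1 CCAAT was present in 46.4%, against 11.2%. TTTGAA was found in 39.3% of the 28, against 18.3% of all promoters, and TTCGAA in 14.3%, against 1.69%. At least 1 of the E2F words TTTCGCGC, TTTGGCGC, TTTCCCGC and TTTGCCGC was found in 7 promoters (25%), against 2.14% of all. TTTGAA and the E2F words differed by role. TTTGAA was in 10 of the 16 promoters of mitotic, checkpoint and spindle genes, and in 1 of the 9 promoters of replication and nucleotide genes. TTCGAA was in 2 of the 16 and 2 of the 9. Either form was in 10 of the 16 and 3 of the 9, beside 19.7% of all promoters. An E2F word was in 6 of those 9 promoters and in 1 of the 16. A match is a description of the letters and not evidence of binding.

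Each value below is the log2 of the processed signal minus the 75th percentile of its array, so 0 is the signal at that percentile and a step of 1 is a doubling of signal. Means are given ± SD of 4 arrays, and differences are Eucommia minus Control with their SE. The arrays of each group shared a slide that held none of the other group, and the effects of slide and extract cannot be told apart here. On the Eucommia arrays 69.3% to 71.9% of spots were well above background, against 59.0% to 61.5% on the Control arrays. All 10 hepatocyte marker genes were measured, with a summed log2 level of 12.3 to 12.5 on the Eucommia arrays and 12.5 to 12.6 on the Control arrays, and 1 of them was lower in the Eucommia group. Markers of some other cells differed between the groups. Pancreatic acinar markers (6 of 8 tested, 3 higher) had a summed level of 1.49 to 2.02 on Eucommia arrays and 0.77 to 0.95 on Control arrays. Cholangiocyte markers (3 of 5 tested, 1 lower) had 0.26 to 0.37 on Eucommia arrays and 0.47 to 1.0 on Control arrays. Neutrophil markers (4 of 7 tested, 2 higher) had -1.43 to -1.03 on Eucommia arrays and -2.09 to -1.0 on Control arrays, which overlap. T and NK cell markers (8 of 10 tested, 2 higher) also overlapped. They had 2.25 to 2.60 on Eucommia arrays and 1.85 to 2.40 on Control arrays. Of 12 Kupffer cell and macrophage markers 0 were higher or lower, with a median difference of -0.48. Endothelial (5 tested) and stellate markers (6 tested) had 1 higher each, and erythroid markers (5 tested) 1 lower. Among all genes tested 18.6% were higher and 6.11% lower. The part of these cells in the results was not tested.

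Of the 23 genes, 3 were higher in the Eucommia group at an adjusted p of 0.05 or less by limma (Cdc20, Rrm2 and Plk1), and 0 were lower. Over all genes tested, 18.6% were higher and 6.11% lower. The same 3 genes were those whose groups did not overlap, all with Eucommia above Control, where 20% of all genes lay wholly above and 8.55% wholly below. A share of 3 in 23 is thus near the background. Rrm2 entered the test through the Eucommia arrays alone. Of the 20 genes above background on all 8 arrays 2 were higher (Cdc20 and Plk1) and 0 lower, beside 11.7% higher and 6.76% lower over all genes of that kind. The median log2 fold change of the 23 genes was -0.14, beside 0.02 for all genes, and 12 of the 23 values were negative. At an unadjusted p of 0.05 the counts were still 3 higher and 0 lower, and the smallest unadjusted p of the other 20 genes was 0.0612. Without any 1 of Eucommia replicates 1, 2, 3 or 4 the count was 1, since Plk1 lost its call and Rrm2 was no longer tested. The count of lower genes depended on the scaling, with 2 after quantile normalization and 6 after median centring, which moves the median of all genes to -0.23.

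**Figure D1:**
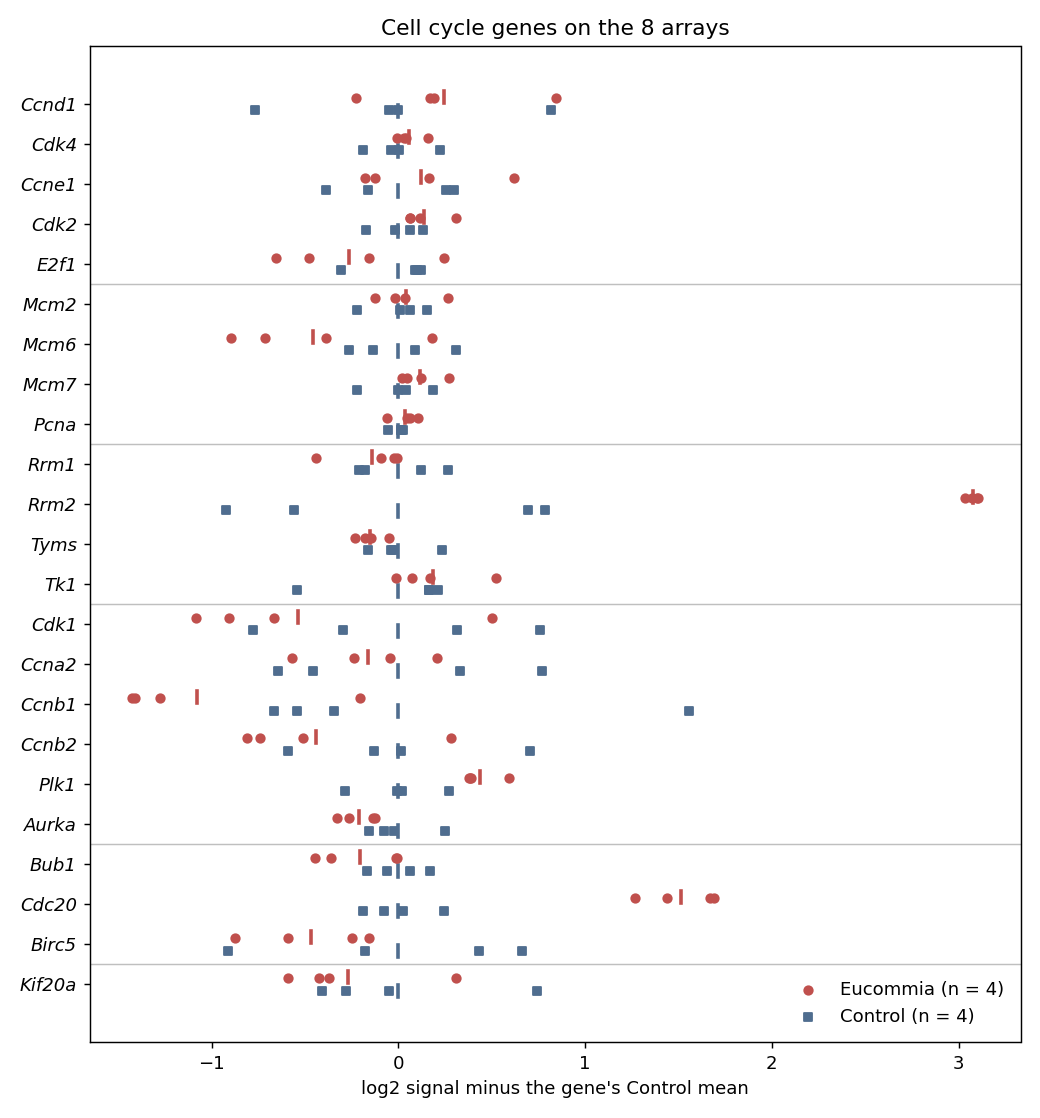
Signal of the 23 tested genes on single arrays, as log2 signal minus the gene's Control mean. Circles are the 4 Eucommia arrays, squares the 4 Control arrays and bars the group means, with grey lines between roles. Cdc20, Rrm2 and Plk1 have all Eucommia arrays above all Control arrays, and the other 20 genes overlap.

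**Figure D2:**
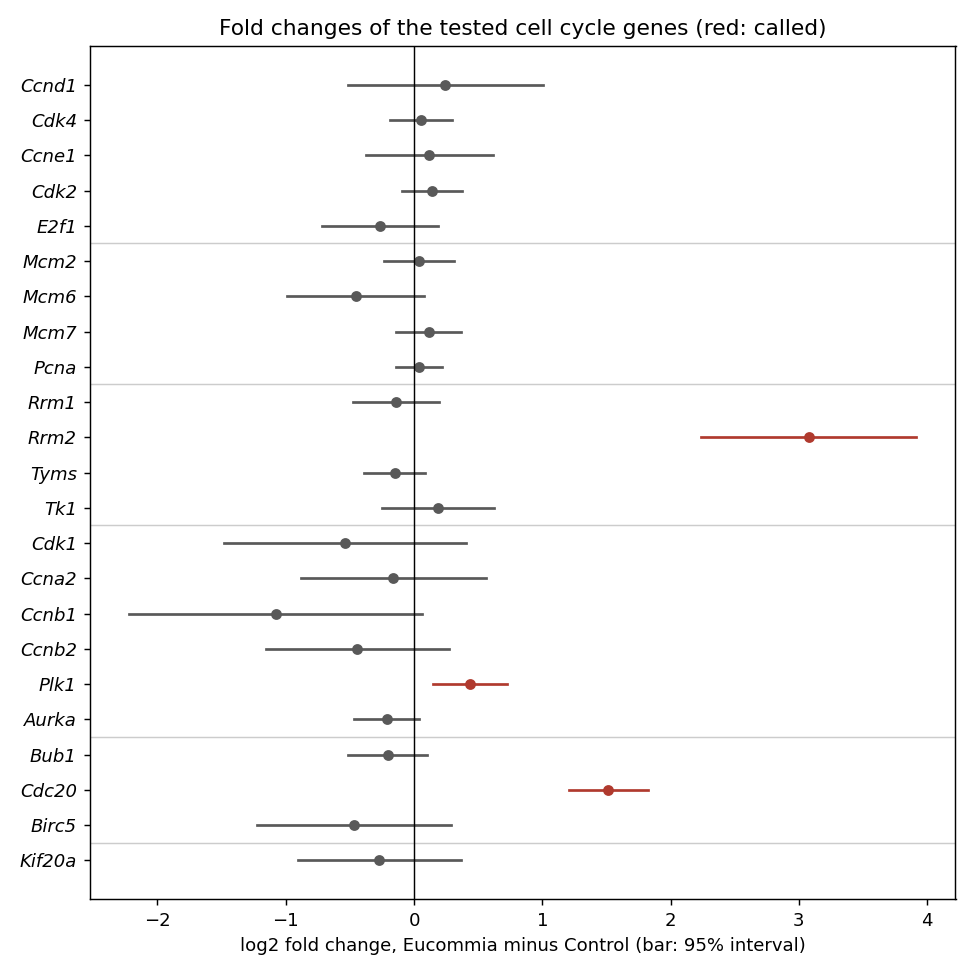
Difference between Eucommia and Control in log2 units for the 23 genes, with the 95% interval from limma, and red for the 3 genes past the threshold. Intervals are widest for Ccnb1 and Cdk1, and narrowest for Pcna. The value of Rrm2 rests on Control signals below background and is not a measure of size.

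None of the 5 genes that act in G1 differed beyond the spread between arrays. Ccnd1, the D-type cyclin that couples growth signals to the cycle, was at 2.24, 2.89, 1.82 and 2.22 on the 4 Eucommia arrays and at 1.28, 2.86, 2.05 and 2.0 on the 4 Control arrays. The highest array of both groups was replicate 2, the groups overlapped, and the spread was 2.10-fold within Eucommia and 2.99-fold within Control. Its difference was 0.25 ± 0.33 (adjusted p = 0.648), with a 95% interval of -0.51 to 1.0. Cdk4, the kinase partner of D-type cyclins, averaged 1.86 ± 0.07 in the Eucommia group and 1.81 ± 0.17 in the Control group, and the interval of its difference, -0.19 to 0.30, was among the narrower ones. Cdk2, the partner of E-type and A-type cyclins, averaged 1.09 ± 0.12 in the Eucommia group and 0.95 ± 0.13 in the Control group (difference 0.14 ± 0.10, adjusted p = 0.38). Ccne1, an E-type cyclin, differed by 0.12 ± 0.22 (adjusted p = 0.737). E2f1, the transcription factor that drives replication genes, differed by -0.26 ± 0.20 (adjusted p = 0.39), with Eucommia arrays at -2.77, -3.17, -3.49 and -3.67 and Control arrays at -3.32, -2.89, -2.92 and -2.91. Both the highest and the lowest of these values lay on Eucommia arrays, and the lowest Control array, replicate 1, stood apart from the other 3.

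None of the 4 tested genes of the replication machinery passed by its brightest probe, and some were measured closely. Pcna, the clamp that holds DNA polymerases on their template, was at 0.71, 0.83, 0.81 and 0.87 on Eucommia arrays and at 0.78, 0.71, 0.79 and 0.78 on Control arrays. Few genes of the array varied as little between arrays of a group: its pooled SD lay at the 1.06 percentile of all genes, and the difference of 0.04 ± 0.08 had an interval of -0.14 to 0.22. A dimmer probe of Pcna gave another result, with -1.11, -1.10, -0.97 and -1.29 on Eucommia arrays and -0.77, -0.87, -0.71 and -0.51 on Control arrays. All Eucommia arrays were below all Control arrays for that probe (difference -0.40 ± 0.11, adjusted p over all probes = 0.0290 by limma), so the probes of Pcna disagree.

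Mcm2, Mcm6 and Mcm7 are subunits of the helicase that opens DNA for replication. Mcm2 averaged -2.93 ± 0.16 in the Eucommia group and -2.97 ± 0.16 in the Control group, and its difference had an interval of -0.23 to 0.31. Mcm7 averaged -1.07 ± 0.11 in the Eucommia group and -1.19 ± 0.17 in the Control group, with an interval of -0.14 to 0.37 for the difference. Mcm6 was the more variable subunit, with -4.56, -3.48, -4.05 and -4.37 on Eucommia arrays and -3.57, -3.93, -3.79 and -3.35 on Control arrays. Of its Eucommia arrays, replicate 2 was the highest and lay among the Control values. Its difference was -0.46 ± 0.23 (adjusted p = 0.203), and without Eucommia replicate 2 it was -0.67 and passed the threshold (adjusted p = 0.0415 by limma).

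Among genes that supply nucleotides, Rrm2, the regulated small subunit of ribonucleotide reductase, stood apart. It was at -2.10, -2.16, -2.10 and -2.13 on the Eucommia arrays, all well above background, and at -6.12, -4.51, -5.76 and -4.41 on the Control arrays, none of which was well above background. The Eucommia values lay within 0.07 of each other, while the Control values spread over 1.71. As the Control level is only a bound, the difference is given as at least 4.54-fold higher in the Eucommia group (adjusted p = 0.000283). The probe passed the filter only through the group in which it is high, so this p is no independent evidence of a difference. The gene was not tested when signal was asked for in both groups. The bound sets the Eucommia mean against the mean, over Control arrays, of the higher of the probe's own signal and the lowest signal well above background.

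Calls of this kind were common on these arrays. Of the 2022 tested genes whose probe was below background on every Control array, 1505 (74.4%) were higher, and the lowest signal well above background was -5.35 to -5.21 on Eucommia arrays and -4.43 to -4.20 on Control arrays. The other probe of Rrm2 did not pass the filter, with -5.40, -4.60, -5.32 and -4.90 on Eucommia arrays and -5.70, -4.28, -5.97 and -6.03 on Control arrays. Those groups overlapped, and that probe was well above background on 2 Eucommia arrays and 1 Control array. With normexp background correction, where an added offset shrinks differences of dim probes, the difference of Rrm2 was 0.62 and passed. The probe was kept there by the same filter, so this pass is no independent evidence either. The part of the background limit in this result was not tested.

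The other 3 nucleotide genes overlapped between groups. Rrm1, the large subunit of the same enzyme, averaged -1.52 ± 0.20 in the Eucommia group and -1.38 ± 0.23 in the Control group (difference -0.14 ± 0.15, adjusted p = 0.542). Tyms, which makes thymidylate, averaged -1.99 ± 0.08 in the Eucommia group and -1.84 ± 0.17 in the Control group. Its difference was -0.15 ± 0.11 (adjusted p = 0.347), and it passed after quantile normalization at -0.31 (adjusted p = 0.0367 by limma). Tk1, the thymidine kinase whose level follows the cycle, differed by 0.19 ± 0.19 (adjusted p = 0.537), with Control replicate 3 lower than every other array.

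Genes of mitosis held the clearest difference and the widest spread. Cdc20, which activates the anaphase-promoting complex so that chromosomes can separate, was at 0.47, 0.89, 0.64 and 0.87 on Eucommia arrays and at -0.87, -0.55, -0.99 and -0.77 on Control arrays. Every Eucommia array was above the 75th percentile of its array and every Control array below it. The difference was 1.52 ± 0.13, which is 2.86-fold (adjusted p = 4.82e-05, 95% interval 1.21 to 1.82). It passed under all 22 alternatives as well, with values of 1.26 to 1.6. The gene rested on 1 probe, which was well above background on all 8 arrays.

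Plk1, a kinase that acts on centrosomes, kinetochores and in cytokinesis, was at -1.65, -1.44, -1.65 and -1.64 on Eucommia arrays and at -2.01, -1.76, -2.04 and -2.31 on Control arrays. The groups did not overlap, but the highest Control array, replicate 2, came close to the lowest Eucommia arrays. The difference was 0.44 ± 0.13, or 1.35-fold (adjusted p = 0.0345). The dimmer probe of Plk1 showed the same direction with no overlap, at -2.37, -2.27, -2.32 and -2.44 on Eucommia arrays and -2.99, -2.83, -3.41 and -3.24 on Control arrays, a difference of 0.77 ± 0.13 (adjusted p over all probes = 0.00258 by limma). The call on the brighter probe was not firm. It was lost without each of Eucommia replicates 1 to 4 and Control replicates 1, 3 and 4 (adjusted p 0.0599 to 0.110), and with quantile normalization, normexp and median centring (0.0979, 0.105 and 0.226), and without replicate 2 of both groups (0.0517).

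**Figure D3:**
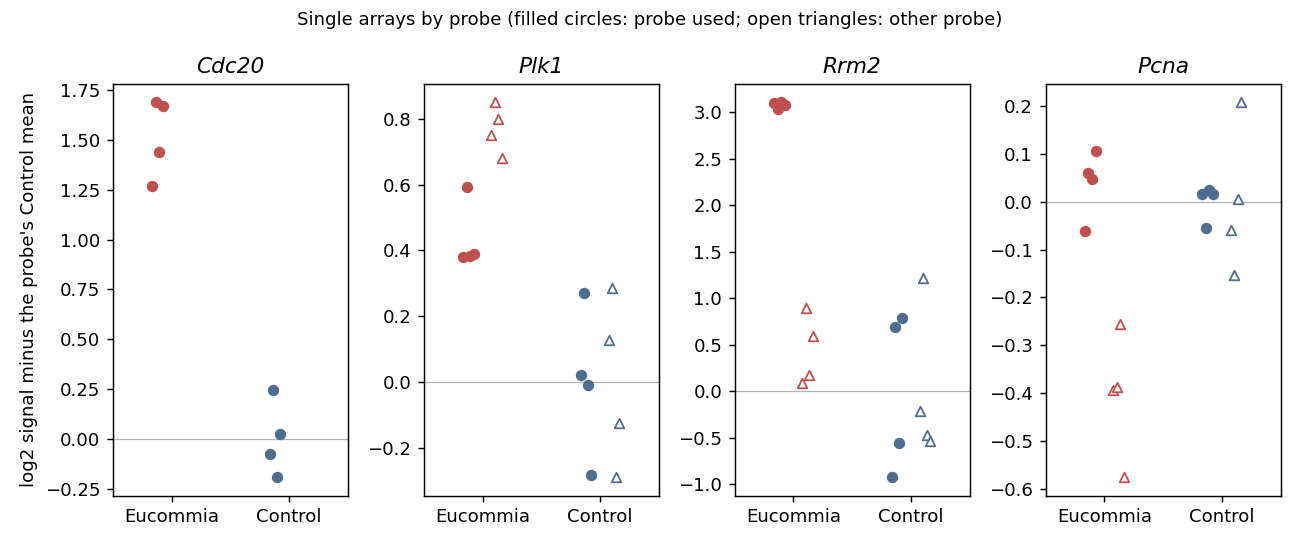
Single arrays for each probe of Cdc20, Plk1, Rrm2 and Pcna, as log2 signal minus that probe's Control mean, with Eucommia left of Control. Filled circles are the probe used for the gene and open triangles the other probe. The probes of Plk1 point the same way, the second probe of Rrm2 overlaps between groups, and the second probe of Pcna lies lower in the Eucommia group while the first does not.

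The cyclins and the kinase that start mitosis had negative differences that did not pass in the test used for the calls above. Only Ccnb1 passed under any alternative, in 3 of them: median centring, a block for the replicate number, and without replicate 2 of both groups. Ccnb1, a B-type cyclin, was at -3.93, -2.86, -4.06 and -4.08 on Eucommia arrays and at -3.0, -1.10, -3.32 and -3.20 on Control arrays. In both groups replicate 2 was far above the other 3 arrays, and the Eucommia replicate 2 value lay inside the Control range. The difference was -1.08 ± 0.50 (adjusted p = 0.162), with an interval of -2.22 to 0.06. Between arrays at the same position of their slides the difference was -0.93, -1.76, -0.74 and -0.89, negative at all 4 positions. With the position (the replicate number) as a block Ccnb1 passed (adjusted p = 0.0114 by limma), while Cdk1 and Ccnb2 did not (0.207 and 0.059). No label pairs arrays of the same number. Replicate 2 was high in both groups in these same values, so the block is no independent evidence of a difference. Cdk1, the kinase that B-type cyclins activate, was at -2.90, -1.31, -2.48 and -2.72 on Eucommia arrays and at -1.5, -1.05, -2.59 and -2.11 on Control arrays. Replicate 2 was again the highest array in both groups, and the difference of -0.54 ± 0.41 was smaller than the range of 1.59 within Eucommia (adjusted p = 0.399). Ccnb2, another B-type cyclin, was at -4.5, -3.41, -4.44 and -4.20 on Eucommia arrays and at -3.83, -2.99, -4.29 and -3.68 on Control arrays. Its order was similar, with replicate 2 on top in each group and a difference of -0.44 ± 0.31 (adjusted p = 0.357). Ccnb2 was well above background on 4 Eucommia and 3 Control arrays, so its lowest Control value lies near the background limit.

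Ccna2, an A-type cyclin used in replication and early mitosis, had replicate 2 as its highest array in the Control group only. It was at -3.38, -3.63, -3.82 and -4.16 on Eucommia arrays and at -3.26, -2.82, -4.24 and -4.05 on Control arrays (difference -0.16 ± 0.32, adjusted p = 0.76). Ccna2 was well above background on 4 Eucommia and 2 Control arrays, so its lowest Control values lie near the background limit. Aurka, a kinase of the spindle poles, varied less, averaging -2.49 ± 0.10 in the Eucommia group and -2.28 ± 0.18 in the Control group. Its difference was -0.21 ± 0.11 (adjusted p = 0.212), and it passed after quantile normalization at -0.42 (adjusted p = 0.0177 by limma). Bub1, a kinase of the spindle checkpoint, averaged -2.35 ± 0.23 in the Eucommia group and -2.14 ± 0.15 in the Control group (difference -0.21 ± 0.13, adjusted p = 0.316). Birc5, the survivin subunit of the chromosomal passenger complex, was at -2.31, -2.40, -2.74 and -3.03 on Eucommia arrays and at -1.49, -1.72, -2.34 and -3.07 on Control arrays. For Birc5 replicate 1 was the highest and replicate 4 the lowest in both groups, unlike the B-type cyclins, and the difference was -0.47 ± 0.33 (adjusted p = 0.358). Kif20a, a kinesin of cytokinesis, was at -3.22, -2.49, -3.39 and -3.17 on Eucommia arrays and at -2.85, -2.05, -3.20 and -3.08 on Control arrays, and did not differ beyond that spread (-0.27 ± 0.28, adjusted p = 0.54).

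Aurkb and Prc1 were too dim to test. Aurkb, the kinase of the chromosomal passenger complex, was at -6.40, -5.03, -2.09 and -6.30 on Eucommia arrays and at -5.75, -4.60, -4.85 and -5.29 on Control arrays. It was well above background on 2 Eucommia arrays and 0 Control arrays, and 1 Eucommia array, replicate 3, was far above the rest. Prc1, which bundles microtubules of the central spindle, was not well above background on any of the 8 arrays. Its values followed the floor of the scanner signal, which was lower on the Eucommia arrays (lowest value -7.66 to -7.51) than on the Control arrays (-6.78 to -6.54).

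The spread between single arrays was wide for several mitotic genes and narrow for several replication genes. The pooled SD within groups had a median of 0.30 over the 23 genes, beside 0.20 over all genes, and 8 of the 23 lay at or above the 90th percentile of all genes. Among genes within 0.5 log2 units of their own mean signal, 6 still did: Ccnd1 (percentile 99), Cdk1 (98.4), Ccnb1 (98.2), Birc5 (95.7), Rrm2 (92.3, with Control values below background) and Kif20a (90.4). Against the same kind of genes Pcna (2.29), Tyms (14.6), Mcm2 (15.4) and Aurka (15.8) were at or below the 25th percentile. In fold terms the 4 Eucommia arrays spanned 2.33-fold for Ccnb1 and the 4 Control arrays 4.67-fold, while Pcna spanned 1.12-fold among Eucommia arrays and 1.06-fold among Control arrays.

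**Figure D4:**
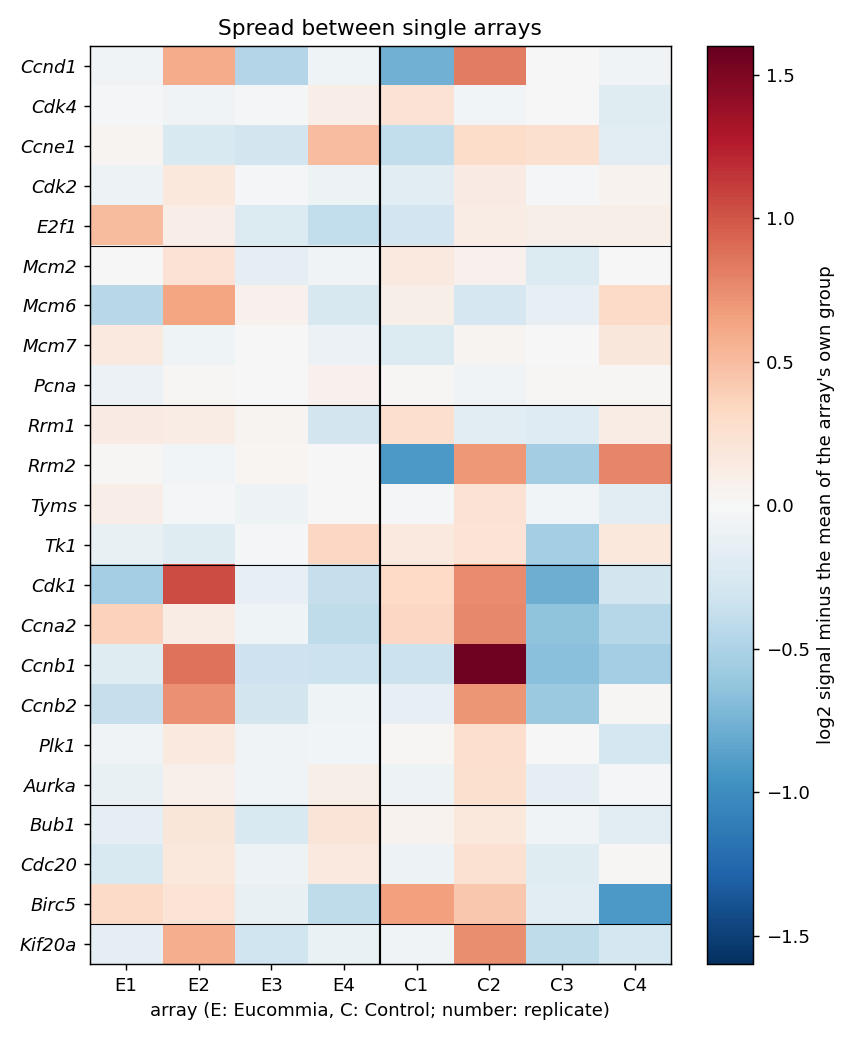
Deviation of each array from the mean of its own group, in log2 units, for the 23 genes (rows) and the Eucommia arrays (E1 to E4) and Control arrays (C1 to C4). Red is above and blue below the group mean. The columns E2 and C2 are red for Cdk1, Ccnb1, Ccnb2 and Kif20a and close to white for Pcna and Cdk4.

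The high arrays were the same ones for many mitotic genes. Replicate 2 was the highest array of its group for 10 of the 23 genes in the Eucommia group (43.5%, against 18.1% of all genes) and for 15 in the Control group (65.2%, against 31.2%). For 6 of the 10 mitotic genes tested it was the highest in both groups: Cdk1, Ccnb1, Ccnb2, Plk1, Cdc20 and Kif20a. It was also the highest in both groups for Ccnd1 and Cdk2 among the 5 G1 genes, and so for 8 of the 23 genes (34.8%). That held for 0 of the 8 genes of replication and nucleotide supply and for 5.25% of all genes. The median deviation of the 10 mitotic genes from their group mean was 0.21 on Eucommia replicate 2 and 0.57 on Control replicate 2, while that of the 8 replication genes was near 0 on the first of these arrays and 0.05 on the second. Among 33 other mitosis genes, 9 (27.3%) were highest on replicate 2 of both groups. These 9 were Kif22, Ect2, Spc25, Ube2c, Kifc1, Pttg1, Dlgap5, Racgap1 and Mad2l1, named after their values were seen. Of 36 other replication genes 5 (13.9%) were.

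These shares describe a pattern found in the values and were not tested. In RNA of whole tissue, fewer cells of a type and less RNA per cell cannot be told apart. The replicate number equals the array's position on its slide, per the file headers, so position and sample cannot be told apart, and the part of position was not tested. Over all genes the deviations of the 2 replicate 2 arrays correlated at -0.0254 (Pearson, 24190 genes, which share the arrays and are not independent). Markers of other cells moved in various ways on these arrays. The median deviation of 12 Kupffer cell and macrophage markers was 0.35 on Eucommia replicate 2 and -0.33 on Control replicate 2. That of 10 hepatocyte markers was -0.02 on Eucommia replicate 2 and 0.02 on Control replicate 2, and that of 8 T and NK cell markers was -0.06 on the first and 0.08 on the second. That of 5 erythroid markers was negative on both, at -0.23 on Eucommia replicate 2 and -0.24 on Control replicate 2, and the part of these cells was not tested. Without replicate 2 of both groups, an alternative chosen after the values were seen, Ccnb1 differed by -0.85 and passed (adjusted p = 0.0052 by limma). Mcm6 also passed there, at -0.76 (adjusted p = 0.0356). Cdk1 (-0.63, adjusted p = 0.208) and Ccnb2 (-0.45, adjusted p = 0.183) did not, and Cdc20 kept its call at 1.54 (adjusted p = 0.000755). The count of the 23 genes was then 1 higher and 2 lower.

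The other genes of the cycle give the setting for these values. A list of 159 further cell cycle genes had 117 with a probe and 96 tested. In the Eucommia group 10 of the 96 were higher and 6 lower, and their median difference was -0.06 on the log2 scale. Over all genes tested 18.6% were higher and 6.11% lower, so the lower count is near that share and the higher count below it. Some of the 10, such as Mybl2, passed the filter through the Eucommia arrays alone. Of the 85 genes above background on all 8 arrays 7 were higher and 6 lower, beside 11.7% higher and 6.76% lower over all genes of that kind. Among 20 tested genes of G1 and of kinase regulation 2 were higher and 1 lower, and among 7 inhibitors of cyclin-dependent kinases 2 were higher and 0 lower. Among 36 replication genes 3 were higher and 3 lower, and among 33 genes of mitosis and cytokinesis 3 were higher and 2 lower. Without Eucommia replicate 2 the 96 genes became 93, with 6 higher and 3 lower, and without Eucommia replicate 3 there were 6 higher. With median centring, which shifts all genes down, 38 were lower.

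**Figure D5:**
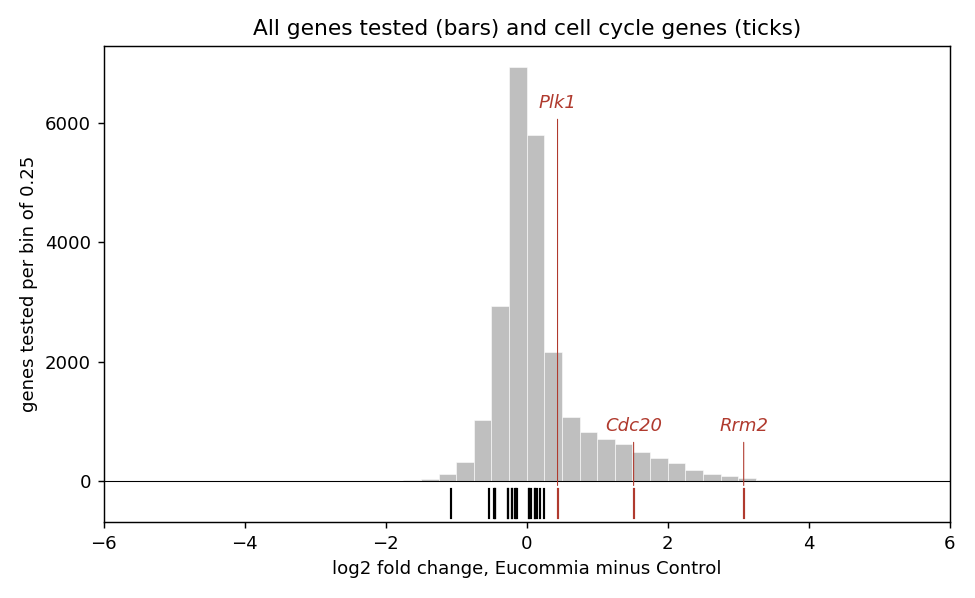
Number of genes tested per bin of 0.25 in log2 fold change, Eucommia minus Control (bars, 24210 genes), with the 23 cell cycle genes as ticks under the axis. Red ticks are Cdc20, Rrm2 and Plk1. The other ticks run from -1.08 to 0.25, and the value of Rrm2 rests on Control signals below background.

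The inhibitors that rose were Cdkn2a and Cdkn2b, neighbours in the genome whose products include blockers of Cdk4 and Cdk6. Which product the Cdkn2a probe measures was not tested. Cdkn2a was at -0.80, -1.34, -1.42 and -1.22 on Eucommia arrays and at -2.49, -2.62, -2.59 and -2.53 on Control arrays. No array overlapped, and the difference of 1.36 ± 0.14 (adjusted p = 0.000101) passed under all 22 alternatives, with 0.72 as the lowest value. Cdkn2b was at -3.04, -2.83, -3.06 and -2.97 on Eucommia arrays and at -3.70, -4.66, -4.43 and -4.0 on Control arrays, with a difference of 1.22 ± 0.20 (adjusted p = 0.00169). It was well above background on 4 Eucommia and 2 Control arrays, so its Control values lie near the limit, and with normexp its difference was at its lowest, 0.30. The other 5 inhibitors did not pass. Cdkn1a, an inhibitor induced by p53, differed by 0.16 ± 0.22 (adjusted p = 0.665), Cdkn1b by -0.08 ± 0.12 (adjusted p = 0.703) and Cdkn1c by -0.43 ± 0.19 (adjusted p = 0.128). The probes of these 3 genes gave unlike values. As a mean over probes the difference was -0.06 for Cdkn1a, -0.40 for Cdkn1b and -0.09 for Cdkn1c, and none passed (adjusted p = 0.86, 0.0678 and 0.684 by limma). Cdkn2c differed by 0.27 ± 0.14 (adjusted p = 0.196) and Cdkn2d by 0.11 ± 0.16 (adjusted p = 0.654).

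Other genes with the smallest adjusted p among the increases had roles across the cycle. Mybl2, a transcription factor that works with MuvB on mitotic genes, was at -3.44, -3.36, -3.19 and -3.58 on Eucommia arrays and at -5.45, -4.77, -5.43 and -5.61 on Control arrays. None of the Control values was well above background, and the Eucommia mean was at least 1.88-fold above the background limit of the Control arrays (adjusted p = 7.36e-05). As with Rrm2, the probe passed the filter through the Eucommia arrays alone, so this p is no independent evidence. Skp2, the ubiquitin ligase subunit that marks Cdkn1b for destruction, averaged -3.06 ± 0.02 in the Eucommia group and -3.98 ± 0.26 in the Control group (difference 0.92 ± 0.13, adjusted p = 0.000768). Its Control values lay near the background limit, and with normexp the difference was 0.23 and still passed. A dimmer Skp2 probe overlapped between groups, with a difference of 0.49 that did not pass (adjusted p over all probes = 0.205 by limma). Pold1, the catalytic subunit of DNA polymerase delta, averaged 0.65 ± 0.21 in the Eucommia group and -0.05 ± 0.19 in the Control group (difference 0.70 ± 0.14, adjusted p = 0.00539). Racgap1, a regulator of cytokinesis, was higher by its brightest probe (0.90 ± 0.11, adjusted p = 0.000408). Another Racgap1 probe was lower (-1.52, adjusted p over all probes = 0.00159 by limma), and the mean over its probes was -0.31 and did not pass (adjusted p = 0.16), so no direction can be given for the gene.

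The 6 genes that were lower act in chromosome structure, replication and the exit from mitosis or the cycle. Smc4, a condensin subunit that compacts chromosomes, averaged -2.21 ± 0.12 in the Eucommia group and -1.67 ± 0.17 in the Control group (difference -0.54 ± 0.11, adjusted p = 0.00695), and it passed under all 22 alternatives. Ccng2, an atypical cyclin of resting cells, differed by -0.72 ± 0.17 (adjusted p = 0.0134). Cdc27, a subunit of the anaphase-promoting complex that Cdc20 activates, differed by -0.62 ± 0.14 (adjusted p = 0.0108). A dimmer Cdc27 probe, well above background on 0 Control arrays, differed by -0.30 and did not pass (adjusted p over all probes = 0.245 by limma). Tipin, a protein of the replication fork, differed by -0.67 ± 0.16 (adjusted p = 0.0154), and Rfc4, a subunit of the loader of the Pcna clamp, by -0.49 ± 0.12 (adjusted p = 0.0167). Both lost the call without Eucommia replicate 1 or 2 (adjusted p 0.0505 to 0.0598). Gins4, of the replication helicase complex, overlapped between groups (-0.50 ± 0.14, adjusted p = 0.0311), and it kept its call in only 3 of 8 repeats, each without 1 array.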

How the data were processed

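Liver RNA of 4 Eucommia and 4 Control samples was measured, each from 500 ng of total RNA according to the labels. Intensity values in the deposited scanner files were made by version 10.1.1.1 of Agilent Feature Extraction, as the submitters' processing notes state. The signal used is background-subtracted within each array, per the file headers. Other deposited columns are flags for control spots, outliers, saturation and signal well above background. The deposited series table equalled the processed signal at 100% of 43379 spots.

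Control and outlier spots were left out, and 0 spots were saturated. Signals were taken to log2, minus the 75th percentile of the array. Probes well above background on at least 4 of 8 arrays were kept (27718 of 41012). Matching unversioned accessions to RefSeq genes of assembly GRCr8 named 16336 probes (39.8%). A gene is its brightest probe, and unnamed probes count by accession. The array design uses another build, so only promoters, from RefSeq, have coordinates.

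The 2 groups were tested in R 4.3.3 with limma 3.58.1, 2-sided, with Benjamini-Hochberg adjustment over all 24210 genes. Adjusted p-values in the text come from this fit unless another is named. The test was checked on simulated data. These held no slide effect and no filter on signal well above background, so the check does not cover those limits. No label says that arrays came from different rats, so p-values measure only the spread between these samples. The number of arrays limits the precision. The genes, the lists and the rule for names were chosen with earlier results of these data known. All 34 genes may be named, with the 7 kinase inhibitors and, of the other cell cycle genes, up to 6 per direction with the smallest adjusted p past 0.05. The alternatives were other scalings, normexp with an offset of 50, other filters, the mean over probes, trended variance, array weights, a replicate block, and arrays left out. Normexp used the median signal of spots. Over all genes same-numbered arrays did not deviate together (correlations -0.104 to -0.0254), and no label pairs them. These correlations cannot show whether same-numbered arrays share an effect on some genes only. Each slide and scan session held 1 group, so neither could be a block.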

Additional observations from a re-analysis of the deposited data

Results flagged for a closer look

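In each group of 4 arrays the gap between an extreme array and its nearest neighbour was compared with the range of the group, by Dixon's 95% limit. Of 46 groups (23 genes, each in 2 groups), 6 passed, and chance alone passes about 1 in 20. Ccnb1 had a high array in both groups: Eucommia replicate 2 was at -2.86, with the others at -4.08 to -3.93, and Control replicate 2 was at -1.10, with the others at -3.32 to -3.0. Plk1 on Eucommia replicate 2 was at -1.44, with the others at -1.65 to -1.64. E2f1 on Control replicate 1 was at -3.32, with the others at -2.92 to -2.89. Tk1 on Control replicate 3 was at -3.53, with the others at -2.82 to -2.77. Pcna on Control replicate 2 was at 0.71, with the others at 0.78 to 0.79, a gap of little size in a gene with a narrow spread. No cause was tested.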

How the results depend on the processing

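Of the values of single genes under the 22 alternatives, 816 kept their side of the threshold, 27 lost the call, and 17 gained one. Of the 816, 32 values of 11 genes changed sign, 10 of them under median centring, all in genes that were not called. Of the called genes Racgap1 changed sign, at -0.31 as a mean over its probes. The count of the 23 genes that were lower, 0 here, was 2 with quantile normalization (Tyms, Aurka), 6 with median centring (E2f1, Mcm6, Tyms, Ccnb1, Aurka, Bub1), 2 with normexp (Tyms, Aurka), 1 without a filter (Prc1, which lies at the floor), 1 with the replicate number as a block (Ccnb1, adjusted p = 0.0114 by limma) and 2 without replicate 2 of both groups. Leaving out single arrays gave 1 to 3 higher and 0 to 1 lower. Without replicate 2 of both groups 1 was higher. The median of the 23 genes was -0.40 with median centring, and -0.16 to 0.02 without single arrays.

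Over all genes the counts were 4508 higher and 1480 lower. The higher count was 2261 for genes above background on all 8 arrays, 2472 with at least 3 arrays in each group, and 2231 without replicate 2 of both groups. Each of these tested fewer genes (19387, 20283 and 21542, against 24210). Without single arrays the higher count ran from 2463 to 4496, and 22007 to 22067 genes were tested where a Eucommia array was left out. The lower count was 2764 with quantile normalization, 7636 with median centring, 2397 with cyclic loess, 2583 with normexp, 7041 without a filter, 948 with the replicate block and 439 without replicate 2 of both groups, and 759 to 1281 without single arrays. The share of calls that were higher, 75.3%, was 59.6%, 32.7%, 62.4%, 59.9% and 42.7% under the first 5 of these. With the replicate block 4055 genes were higher.

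Of the 96 other cell cycle genes, the higher count of 10 was 6 with at least 3 arrays in each group and 4 without replicate 2 of both groups, and 6 to 10 without single arrays. The lower count of 6 was 13 with quantile normalization, 38 with median centring, 11 with cyclic loess, 14 with normexp, 12 with array weights, 2 without replicate 2 of both groups, and 3 to 9 without single arrays. The replicate block took the call from Ccng2 and Gins4 (adjusted p = 0.0598 and 0.0886 by limma). No other cause of these changes was tested. Dim genes are limited by the background: Rrm2, Mybl2, Cdkn2b, Skp2, Ccna2 and Ccnb2 have Control values at or near it.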
